A study of Homo sapiens with 12 samples.

Results

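Genes of the ATF4 branch of the integrated stress response were followed in 293T cells in which a 4EBP1 protein that resists mTORC1 was switched on. The 10 genes, ATF4, ATF5, ATF3, DDIT3, DDIT4, TRIB3, CHAC1, SESN2, PPP1R15A and ASNS, were chosen by name from the 58735 genes of the count table, and each was found there by its symbol and Ensembl identifier. The 293T line derives from human embryonic kidney cells and carries the SV40 large T antigen. Every library came from the derivative called 293T4A, which holds a lentiviral, doxycycline-induced 4EBP1-4A construct (phosphorylated residues replaced by alanine) and was sorted on GFP. The DMSO group received vehicle and the doxycycline group received the drug at 2 mg/mL, for 12 h by the protocol in the labels and methods, although the design text gives 2 h and the study's results text a longer time than either. Both groups received cycloheximide for 10 min before harvest, and each group gave 3 RNA-seq and 3 Ribo-seq (ribosome footprint) libraries. Cells given doxycycline without the construct were not analysed here, so the drug and the protein it induces cannot be told apart. The study calls its replicates biological, but the sources used here do not say whether they were separate cultures of the line, so p-values measure the spread between these samples only.

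In the integrated stress response, kinases that sense endoplasmic reticulum stress, amino acid lack, viral RNA or haem lack phosphorylate eIF2, which lowers translation in general and lets ribosomes bypass inhibitory upstream reading frames in the ATF4 mRNA. ATF4, a basic leucine zipper transcription factor, then raises genes for amino acid uptake and synthesis, other transcription factors, and feedback regulators. mTORC1 also raises ATF4 and its amino acid genes, and 4EBP proteins, which block the cap-binding factor eIF4E, are among the links between the kinase and ATF4 translation.

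The 10 genes differed in the leader sequence that stands before the coding start. In the representative transcripts of GENCODE 44, 6 of the 10 leaders held at least 1 upstream ATG (60%), beside 41.5% of 20046 protein-coding genes. ATF4 held 3 upstream ATGs in 282 bases, ATF5 held 2 in 315 bases and DDIT3 held 3 in 177 bases, and in each of these 3 genes 1 upstream frame ran past the coding start out of frame with it. Such an overlapping frame was present in 13.2% of protein-coding genes. TRIB3 and PPP1R15A had 2 upstream frames each and SESN2 had 1, all of which closed before the coding start, and ATF3, DDIT4, CHAC1 and ASNS had none. The median leader of the 10 genes was 218.5 bases, against 131 bases for all protein-coding genes.

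The promoters were read for TGATGNAA (TTNCATCA on the other strand), the core of the C/EBP-ATF response element through which ATF4 dimers act, because RNA levels of its targets are the readout of the comparison. RefSeq windows on GRCh38.p14 ran from 250 bases before to 50 bases after each annotated start. In these, 3 of the 10 genes held a match, as did 4.46% of 27305 genes. The 10 genes had 18 windows and all genes 35116, so these shares do not rest on equal numbers of windows per gene. ATF3 and ASNS each also had a window at another start without a match. The matches lay 191 bases before the start of ATF3 (chr1:212565196-212565243, plus strand), 209 bases before the start of CHAC1 (chr15:40953242-40953289, plus strand) and 68 bases before the start of ASNS (chr7:97872449-97872496, minus strand). They are printed 5′ to 3′ on the strand of the gene, with the matching bases in capitals, and the CHAC1 match lies in the reverse orientation.
ATF3: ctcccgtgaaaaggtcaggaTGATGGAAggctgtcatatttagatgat
CHAC1: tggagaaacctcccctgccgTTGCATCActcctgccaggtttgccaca
ASNS: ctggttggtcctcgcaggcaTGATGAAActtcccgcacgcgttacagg
The RefSeq starts used for CHAC1 and ASNS lie inside the longer gene spans of GENCODE 44, so both of these matches also lie within those spans. A match of these letters is a description of the sequence and not a measured binding site.

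RNA-seq reads counted on genes numbered 51519700 to 57824136 in the DMSO libraries and 21687906 to 47862104 in the doxycycline libraries. Doxycycline replicate 3 stood apart from the others: 5.94% of its reads were counted on genes, beside 19.7% to 30.8% in the other 5 RNA-seq libraries, and mitochondrial genes took 5.76% of its gene reads, beside 11.8% to 15.8%. Its levels relative to the other doxycycline libraries rose with the GC content of the transcript, with a correlation of 0.68 across 20396 genes, which are not independent and share these libraries. Fold changes of the members and medians of the gene lists are therefore given with and without this library. Fold changes of single list genes are given only without it. Ribo-seq reads on genes numbered 210186 to 1002424 per library. All 9 markers of 293T cells were detected (summed level 1002 to 1092 counts per 1000000 gene reads, CPM, in DMSO and 1127 to 1378 CPM with doxycycline), and of 10 skin markers KRT10 alone was above 1 CPM, with KRT5, KRT14 and DCD at 0. EIF4EBP1, whose endogenous and introduced copies are not separated in the table, stood at 156, 157 and 169 CPM in DMSO and at 260.0, 281 and 267 CPM with doxycycline. Its log2 fold change was 0.79 (edgeR adjusted p = 0.303) with 6 libraries and 0.76 (adjusted p = 1.08e-05) without doxycycline replicate 3.

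At baseline the 10 mRNAs spanned a wide range of abundance. Per kilobase of exon (RPKM, mean over the 3 DMSO libraries), ATF4 was highest at 197 ± 11.0 (SD, n = 3), followed by DDIT4 at 85.9 ± 13.6, SESN2 at 50.3 ± 7.13 and DDIT3 at 41.9 ± 22.5. ATF3 and CHAC1, each at 17.6, and TRIB3, at 17.1, came next, and PPP1R15A at 11.7, ATF5 at 3.48 and ASNS at 2.40 closed the order. The DMSO libraries of SESN2 and DDIT3, of ATF3 and CHAC1, and of CHAC1 and TRIB3 overlapped. The order within these neighbouring pairs is not resolved, while the ranges of the other neighbours did not overlap. These ranges do not cover exon bases shared with other genes (49.3% for ASNS, 39.6% for DDIT3 and 22.1% for ATF5). The effect of such sharing on the order was not tested.

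RNA-seq addressed whether the mRNAs of the pathway changed with induction of 4EBP1-4A. Most members were lower in the doxycycline group, by small amounts: 8 of 10 log2 fold changes lay below zero with all 6 libraries and 9 of 10 without doxycycline replicate 3. With 6 libraries, 0 of 10 members passed edgeR's quasi-likelihood test at an adjusted p of 0.05, as did 0% of the 20552 tested genes in the lower direction and 0% in the higher direction. At an unadjusted p under 0.05, 3 members were lower, and over all genes 2189 were higher and 884 lower. Without doxycycline replicate 3, 4 of 10 members fell (ATF4, DDIT4, CHAC1 and ASNS) and 0 rose, where 3.29% of 20459 tested genes fell and 3.76% rose. The median log2 fold change of the 10 genes was -0.20 with 6 libraries, beside 0.0029 over all tested genes, and -0.30 without that library, beside -0.00057.

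**Figure D1:**
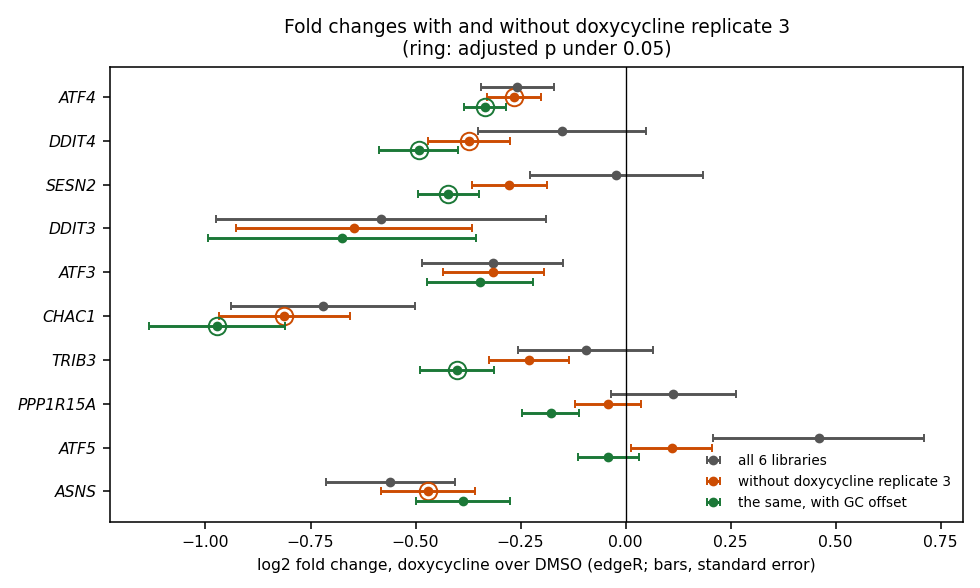
Log2 fold change of each member (doxycycline over DMSO, RNA-seq) from edgeR, with its standard error as bars. The fits used all 6 libraries, left out doxycycline replicate 3, or left it out and added a term for transcript GC content. Rings mark an adjusted p under 0.05. Without that library and without the GC term, 9 of the 10 values lie below zero and ATF5 alone lies above it.

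Counted without a model, 3 members (ATF4, CHAC1 and ASNS) had all 3 doxycycline libraries below all 3 DMSO libraries, 0 had the opposite and 7 overlapped. Over all tested genes, 20.8% were lower in this way and 17.7% higher. Without doxycycline replicate 3, 6 members were lower in every library and 0 higher, beside 22.6% and 20.9% of genes. A comparison of 3 against 3 libraries by the two-sided exact permutation test cannot give a p below 0.1.

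ATF4 (ENSG00000128272, chr22:39519695-39522683 on GRCh38, plus strand), the transcription factor at the head of the pathway, fell by a small and even amount. Its level was 488, 509.6 and 545 CPM in the DMSO libraries and 429, 422 and 403 CPM in the doxycycline libraries, so the groups did not overlap (514 ± 28.8 against 418 ± 13.8, SD, n = 3 each, exact permutation p = 0.1). The log2 fold change was -0.26 (SE 0.087, edgeR adjusted p = 0.303) with 6 libraries and -0.27 (SE 0.065, adjusted p = 0.0249) without doxycycline replicate 3, or 0.832 times the DMSO level. ATF4 has annotated pseudogene copies, and reads that align to several places were counted apart from genes, so some of its reads may be missing.

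Of the other transcription factors, DDIT3 (CHOP, which promotes death under lasting stress) varied the most within a group. Its level was 29.1, 48.4 and 86.9 CPM in DMSO and 44.4, 25.2 and 37.0 CPM with doxycycline. The DMSO libraries alone spanned 2.98-fold, a spread that 0.0512% of 11722 genes with a mean of at least 5 CPM exceeded, and the doxycycline libraries lay inside or just below that range. The log2 fold change was -0.58 (SE 0.39, edgeR adjusted p = 0.363) with 6 libraries and did not pass the test. Without doxycycline replicate 3 it was -0.65 (SE 0.28, adjusted p = 0.156) and also did not pass. With a further library left out it ran from -1.11 (without doxycycline replicate 1, adjusted p = 0.0162) to -0.14 (without DMSO replicate 3), and it also passed without DMSO replicate 1 or 2. In GENCODE 44, 39.6% of DDIT3 exon bases are shared with other genes on either strand (MARS1 and MBD6 on the opposite one), and whether counting used strand is not given in the sources used here.

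ATF3, a stress-induced repressor and activator, stood at 59.4, 70.9 and 80.8 CPM in DMSO and at 65.9, 46.6 and 52.3 CPM with doxycycline. The groups overlapped through doxycycline replicate 1. The log2 fold change of -0.32 (SE 0.17, edgeR adjusted p = 0.308) with 6 libraries did not pass. Without doxycycline replicate 3 it was -0.31 (SE 0.12, adjusted p = 0.109) and also did not pass. With a further library left out it ran from -0.59 (without doxycycline replicate 1, adjusted p = 0.00240) to -0.087 (without doxycycline replicate 2), and it also passed without DMSO replicate 1 or 2. ATF5, a relative of ATF4 that also has an overlapping upstream frame, stood at 9.41, 10.6 and 10.2 CPM in DMSO and at 10.2, 11.5 and 18.7 CPM with doxycycline. Only doxycycline replicate 3 was clearly higher, and the log2 fold change of 0.46 (SE 0.25, edgeR adjusted p = 0.311) became 0.11 (SE 0.097, adjusted p = 0.512) without it.

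CHAC1 (ENSG00000128965, chr15:40952962-40956512, plus strand), a glutathione-degrading enzyme and a direct ATF4 target, had the largest fold change of the 10 in the edgeR fits with 6 libraries and without doxycycline replicate 3, although DDIT3 exceeded it under voom weights and without doxycycline replicate 1. Its level was 26.3, 34.8 and 47.0 CPM in DMSO and 21.8, 19.0 and 22.9 CPM with doxycycline. The doxycycline libraries were close together and all lay below the DMSO libraries, which spanned 1.79-fold (0.239% of genes spanned more). The log2 fold change was -0.72 (SE 0.22, edgeR adjusted p = 0.303) with 6 libraries and -0.81 (SE 0.16, adjusted p = 0.0108) without doxycycline replicate 3, or 0.569 times the DMSO level.

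ASNS (ENSG00000070669, chr7:97851677-97872542, minus strand), which makes asparagine from aspartate and glutamine, also fell. It stood at 10.0, 12.2 and 13.1 CPM in DMSO and at 8.75, 8.12 and 6.39 CPM with doxycycline, with no overlap. Its log2 fold change was -0.56 (SE 0.15, edgeR adjusted p = 0.303) with 6 libraries and -0.47 (SE 0.11, adjusted p = 0.0230) without doxycycline replicate 3, or 0.721 times the DMSO level. In GENCODE 44, 49.3% of its exon bases lie in a second gene model on the same strand, and it has annotated pseudogene copies, so its absolute level is uncertain.

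DDIT4 (REDD1, ENSG00000168209, chr10:72273919-72276036, plus strand) and SESN2 (sestrin 2) restrain mTORC1 under stress, and both depended on doxycycline replicate 3. DDIT4 stood at 150.0, 189.7 and 206 CPM in DMSO and at 149, 131 and 195 CPM with doxycycline, and SESN2 at 147, 179 and 196 CPM and at 139, 147 and 210.4 CPM. In both genes doxycycline replicates 1 and 2 lay below every DMSO library, and replicate 3 lay inside or above the DMSO range. The separation was narrow. For SESN2, doxycycline replicate 2 was at 147.2 and DMSO replicate 1 at 147.3 CPM. For DDIT4, doxycycline replicate 1 was at 148.6 and DMSO replicate 1 at 150.0 CPM. DDIT4 had a log2 fold change of -0.15 (SE 0.20, edgeR adjusted p = 0.631) with that library and -0.37 (SE 0.098, adjusted p = 0.0319) without it, whereas SESN2 had -0.022 (SE 0.21, adjusted p = 0.955) and -0.28 (SE 0.089, adjusted p = 0.0628).

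Of the feedback regulators, TRIB3, a pseudokinase that binds ATF4 and AKT, stood at 49.8, 52.9 and 66.2 CPM in DMSO and at 47.6, 47.9 and 57.7 CPM with doxycycline. Again doxycycline replicate 3 alone overlapped the DMSO libraries. The log2 fold change was -0.095 (SE 0.16, edgeR adjusted p = 0.715) with that library. Without it the change was -0.23 (SE 0.096, adjusted p = 0.139), and neither passed. PPP1R15A (GADD34), which directs a phosphatase to eIF2 and so ends the response, stood at 37.3, 41.3 and 42.2 CPM in DMSO and at 41.0, 36.8 and 48.7 CPM with doxycycline. Its log2 fold change was 0.11 (SE 0.15, edgeR adjusted p = 0.629) with 6 libraries. Without doxycycline replicate 3 it was -0.042, with a 95% interval of -0.21 to 0.12.

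**Figure D2:**
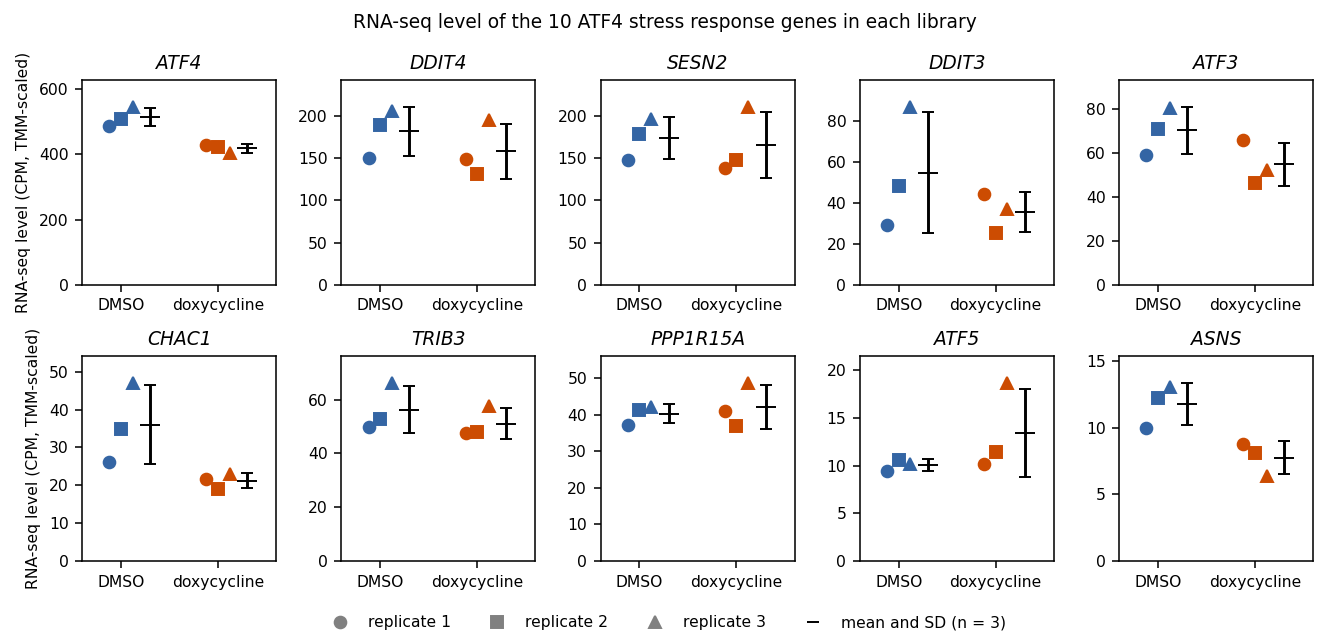
RNA-seq level of each member in CPM (each panel has its own axis from 0), one point per library, with the group mean and SD as horizontal and vertical lines (n = 3 per group). ATF4, CHAC1 and ASNS show no overlap between groups, and DDIT3 shows the wide DMSO spread of 29.1 to 86.9 CPM.

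The DMSO libraries kept much the same order across the members, and the doxycycline libraries did not. DMSO replicate 1 was the lowest DMSO library for 10 of the 10 genes and DMSO replicate 3 the highest for 9, whereas the highest doxycycline library was replicate 1 for 4 genes and replicate 3 for 6. Without doxycycline replicate 3, leaving out DMSO replicate 3 as well left 2 members called lower (CHAC1 and ASNS), beside 1.55% of all genes tested. Leaving out doxycycline replicate 2 left 0 members by edgeR, with 5 at an unadjusted p under 0.05, in a fit that called 0.0348% of genes lower. Leaving out DMSO replicate 1 gave 7 members beside 1.11% of genes, DMSO replicate 2 gave 8 beside 7.36%, and doxycycline replicate 1 gave 6 beside 7.71%. Where a group is left with 1 library that library is assumed to vary like the rest.

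Doxycycline replicate 3 differed from the other doxycycline libraries with base composition, in which the members are not typical. The median transcript GC content of the members was 58.5%, beside 49.2% for all protein-coding genes, from 42.7% for ASNS to 61.5% for TRIB3. Over all genes, the log2 ratio of doxycycline replicate 3 to the mean of replicates 1 and 2 had a median of -0.69 below 40% GC and 0.46 at 60% GC and above. Among the members this ratio was 0.79 for ATF5, 0.56 for SESN2 and 0.48 for DDIT4, and it was -0.40 for ASNS, the member lowest in GC. TRIB3 and CHAC1, the members richest in GC, lay below the median of their class, at 0.27 and 0.17. The fold change without that library also moved with GC, from a median of -0.18 below 40% to 0.19 at 60% and above.

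With a GC term fitted for each library and doxycycline replicate 3 left out (an alternative chosen after seeing the data), 5 members fell, beside 1.96% of all genes. These were ATF4 (-0.33, adjusted p = 0.00766), DDIT4 (-0.49, adjusted p = 0.0167), TRIB3 (-0.40, adjusted p = 0.0265), CHAC1 (-0.97, adjusted p = 0.0108) and SESN2 (-0.42, adjusted p = 0.0120), all by edgeR on the log2 scale. ASNS, at -0.39, no longer passed (adjusted p = 0.0698). With all 6 libraries weighted by their quality in limma's voom, 8 members fell, and 18.1% of all genes fell with them. DESeq2 without doxycycline replicate 3 called 3 members lower (ATF4, SESN2 and ASNS), beside 5.15% of all genes. With 6 libraries it called 0 members and 0.00973% of genes lower. At an unadjusted p under 0.05 in that DESeq2 fit, 3 members were lower, as were 1323 of 20552 genes. ATF4 fell in each of these 3 alternatives, but did not pass when DMSO replicate 3 or doxycycline replicate 2 was left out together with doxycycline replicate 3.

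**Figure D3:**
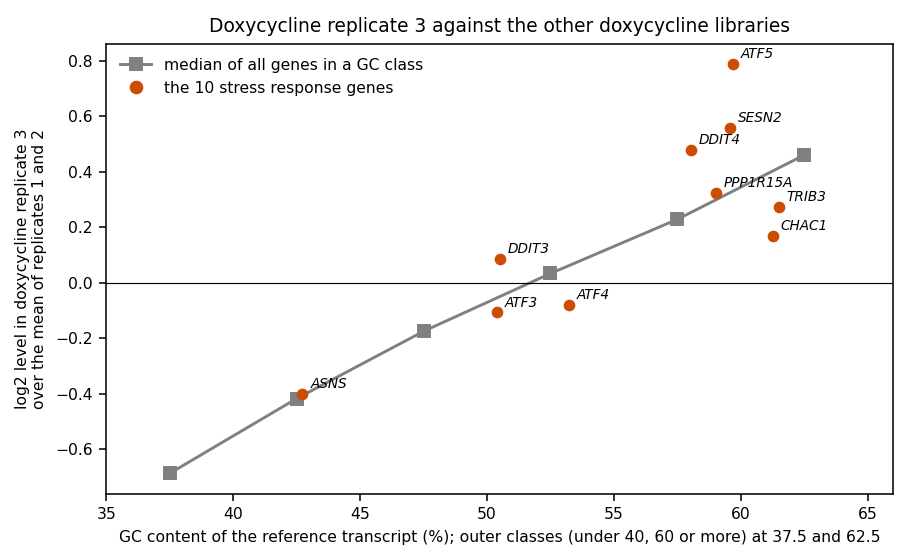
Median log2 ratio over all tested genes by transcript GC content (%), for doxycycline replicate 3 over the mean of doxycycline replicates 1 and 2 (squares), with the 10 members at their own GC content and ratio (circles). The median climbs from -0.69 to 0.46 across GC classes, and most members sit at the GC-rich end.

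Genes that act around the members were counted in fixed lists, and in the 6-library edgeR fit no gene of any list passed. Median log2 fold changes in that fit were -0.17 for amino acid transporters, -0.068 for amino acid synthesis (5 of 10 below zero) and -0.079 for other ATF4 targets. They were -0.21 for tRNA synthetases, -0.041 for eIF2 genes, 0.11 for partner factors, -0.30 for paralogs and -0.44 for the ATF6 and XBP1 arm. Without doxycycline replicate 3, 3.29% of 20459 tested genes fell and 3.76% rose, with a median log2 fold change of -0.00057. In that fit amino acid transporters gave 3 of 9 lower and 0 higher, with 9 of 9 below zero and a median of -0.29. SLC7A11, the cystine importer, stood at 185, 179 and 230.3 CPM in DMSO and at 125, 102 and 48.1 CPM with doxycycline, with no overlap (log2 fold change without doxycycline replicate 3 -0.80, SE 0.099, edgeR adjusted p = 0.00088). SLC38A2, a carrier of small neutral amino acids, had -0.55 (adjusted p = 0.00416), and SLC7A3, a carrier of cationic amino acids, had -0.45 (adjusted p = 0.0169).

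Amino acid synthesis gave 3 of 10 lower and 0 higher, beside 3.29% and 3.76% of all tested genes, with a median of -0.11. PSAT1, an enzyme of serine synthesis, stood at 382, 354 and 385 CPM in DMSO and at 266, 245 and 146 CPM with doxycycline, and the groups did not overlap. Its log2 fold change without doxycycline replicate 3 was -0.54 (SE 0.066, edgeR adjusted p = 0.00088). CTH, of cysteine synthesis, had -0.56 (adjusted p = 0.00455), and MTHFD2, of mitochondrial folate metabolism, had -0.46 (adjusted p = 0.00490).

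Of 13 other ATF4 targets, 5 fell and 0 rose, beside 3.29% and 3.76% of all tested genes, with a median of -0.22. These were INHBE, an activin subunit, at -0.58 (edgeR adjusted p = 0.0287), VLDLR, a lipoprotein receptor, at -0.37 (adjusted p = 0.0151), STC2, a secreted glycoprotein, at -0.37 (adjusted p = 0.0275), XPOT, the tRNA exporter, at -0.33 (adjusted p = 0.0122), and HMOX1, haem oxygenase. The 12 tRNA synthetases all lay below zero with a median of -0.11, but 1 passed, GARS1 at -0.21 (adjusted p = 0.0495), and 0 passed with library totals in place of TMM scaling, where 11 lay below zero.

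Among regulators of ATF4 and relatives of the members, calls were few without doxycycline replicate 3, where 3.29% of all tested genes fell. Of 12 eIF2 kinases and subunits of eIF2 and its exchange factor eIF2B, 1 fell (EIF2S2, the beta subunit of eIF2, -0.28, edgeR adjusted p = 0.0256) and 0 rose, with a median of 0.028 without doxycycline replicate 3. Of 5 partner factors CEBPG, which dimerizes with ATF4, fell (-0.31, adjusted p = 0.0215), and 4 lay below zero with a list median of -0.10. Of 8 paralogs of members SESN3, another sestrin, fell (-0.28, adjusted p = 0.0324), and all 8 lay below zero with a median of -0.21. With the GC term neither CEBPG nor SESN3 passed, and 3 eIF2 genes rose (EIF2AK2, EIF2S1 and EIF2B3). The lower calls became 7 transporters, 6 synthesis genes, 4 tRNA synthetases and 8 other targets. Over all genes that fit called 402 of 20459 lower and 405 higher.

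The ATF6 and XBP1 arm of the unfolded protein response, which raises chaperones of the endoplasmic reticulum, varied widely within DMSO, as DDIT3 did. All 14 of its genes lay below zero without doxycycline replicate 3, with a median of -0.38, yet 0 passed by edgeR. At an unadjusted p under 0.05 in that fit, 7 of them were lower, as were 2630 of 20459 tested genes. HSP90B1, the most abundant, stood at 441, 619.6 and 942 CPM in DMSO and at 624, 433 and 486 CPM with doxycycline, and PDIA4 stood at 303, 424 and 708 CPM and at 424, 308 and 402 CPM. HSPA5 (BiP) and HERPUD1, named here after their values were seen, spanned 4.13-fold and 4.34-fold within DMSO. As with DDIT3, DMSO replicate 3 was highest and doxycycline replicate 1 was the highest of its group for these last 2 genes and HSP90B1, and the part of this spread in the fold changes of the members was not tested.

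**Figure D4:**
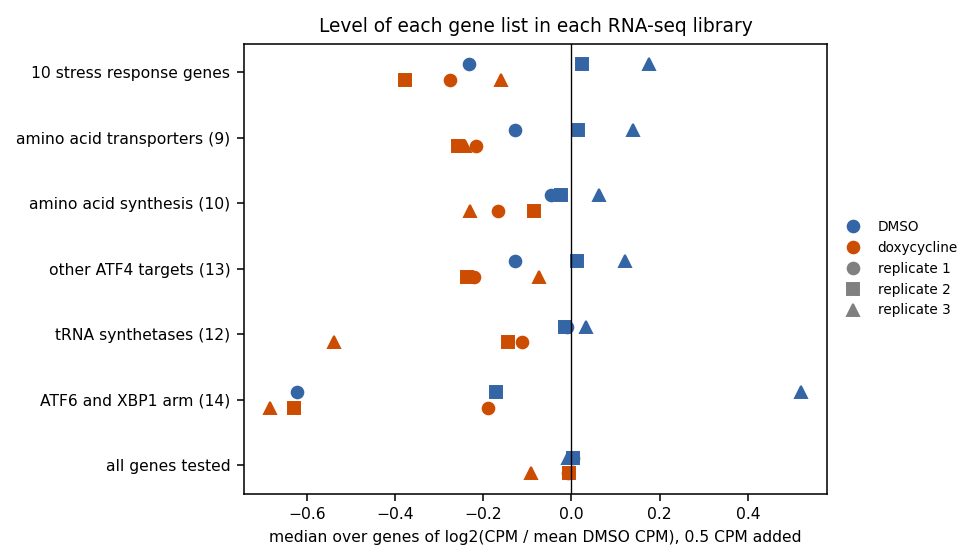
Median log2 level relative to the DMSO mean (0.5 CPM added to each value), one point per RNA-seq library. Rows are the members, amino acid transporters, amino acid synthesis, other ATF4 targets, tRNA synthetases, the ATF6 and XBP1 arm and all tested genes. The eIF2 genes, partner factors and paralogs are not drawn. The ATF6 and XBP1 arm runs from -0.62 to 0.52 within DMSO, whereas the members run from -0.23 to 0.18 in DMSO and from -0.38 to -0.16 with doxycycline.

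Ribo-seq, made to measure translation apart from mRNA level, held too few reads on these genes to do so. The 10 members drew 30 footprint reads over 6 libraries, against 291433 RNA-seq reads, and 4 of them (ATF5, DDIT3, PPP1R15A and ASNS) drew none. A count of 0 allows up to 3 reads, or 2.99 to 14.3 CPM depending on the library, by counting error only. ATF4, the most abundant mRNA of the set, drew 1 read, ATF3 and TRIB3 1 each, and DDIT4 6.

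CHAC1 drew 0, 1 and 3 reads in DMSO and 3, 3 and 1 with doxycycline, and all 10 reads of SESN2 fell in doxycycline replicate 3. These 2 genes alone reached the minimum of 10 reads for the joint test of footprints over mRNA, which called 0.15% of 1334 genes. Neither passed by edgeR, at an adjusted p of 0.320 for CHAC1 and 0.227 for SESN2 (0.0342 for SESN2 before adjustment). Because no library held more than 3 reads of CHAC1, and SESN2 was seen in 1 library, no fold is given. A change in translation of the 10 genes was not detectable in libraries of this depth with most footprint reads on few genes.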

How the data were processed

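The authors prepared total RNA and footprint libraries with 3 replicates per group and sequenced them on the HiSeq platform. They removed linker and ribosomal sequence from footprints, aligned with STAR and deposited raw counts per gene. The counting tool is not named in the methods. The submitters' notes name GRCh37, and the methods name GRCh37 for annotation and GRCh38 for alignment. Coordinates, leaders, GC content and exon lengths here come from GRCh38 with GENCODE 44 and promoters from RefSeq. The deposited table of the authors' own translation tests served only to pair symbols with identifiers.

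The 10 members and the gene lists were chosen with earlier results of these data known. Genes that reached 10 reads in 3 or more libraries were fitted with edgeR 4.0.16 (R 4.3.3; TMM scaling, quasi-likelihood test, Benjamini-Hochberg adjustment over all tested genes, call at 0.05), and footprints over mRNA by the interaction term of 1 model over both assays. CPM values use TMM library sizes. Alternatives were DESeq2 1.42.0, limma 3.58.1 (voom quality weights), library totals, other count minimums, a GC offset, a replicate block and leaving out libraries. All 10 members passed the filter. Of each list, called genes are named, at most the 4 largest changes, or else the 2 most abundant, and HMOX1 was added after its value was seen. The edgeR fit of RNA-seq was tested on simulated counts, with 6 libraries and without doxycycline replicate 3. The interaction model and the alternative models were not. Spike-in rows and rows naming no gene were left out; 5.94% to 30.8% of RNA-seq and 0.888% to 2.95% of Ribo-seq reads in the table were on genes.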

Additional observations from a re-analysis of the deposited data

How the results depend on the processing

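With 6 libraries, edgeR called 0 genes, DESeq2 called 1 higher and 2 lower, and voom with quality weights called 3810 higher and 3724 lower, 8 members among them. Leaving out 1 library gave 0 to 769 higher, 0 to 673 lower and 0 to 4 members, and only the fit without doxycycline replicate 3 made calls (769, 673 and 4). With that library already left out, DESeq2 called 996 higher and 1054 lower, library totals 1442 higher and 339 lower, and the GC offset 405 higher and 402 lower. Leaving out a further library gave 2 to 1483 higher, 7 to 1549 lower and 0 to 8 members.

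The sign turned for 4 members. With 6 libraries TRIB3 was 0.014 by library totals and -0.23 to 0.042 over the libraries left out. SESN2 was 0.092 by library totals and -0.28 to 0.11. PPP1R15A was -0.12 by voom, -0.18 with the GC offset and -0.042 to 0.22. Without doxycycline replicate 3, PPP1R15A was 0.014 by library totals and -0.12 to 0.033 with a further library left out, and ATF5 was -0.041 with the GC offset. The cause was not tested. Library totals moved the median of all genes to 0.097.

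Deviations from the group mean correlated between same-numbered replicates at 0.457, -0.444 and 0.0272 for replicates 1, 2 and 3, over 20552 genes. With 3 libraries per group these values cannot settle whether a shared number marks a shared culture or batch. The main fits left replicate number out. The fit with a replicate block called 0 genes in either direction, with 1938 higher and 1487 lower before adjustment. Depth, and the share of reads taken by a few genes, limited the footprint results.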
